A study of Mus musculus with 6 samples.

Results

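The sarcomeric myosin heavy chain genes Myh1, Myh2, Myh3, Myh4, Myh6, Myh7, Myh7b and Myh8 were followed in mouse gastrocnemius, the large calf muscle, after inducible deletion of the vitamin D receptor gene Vdr. They were chosen by family and taken by gene symbol, and all 8 were found among the 43346 genes of the deposited table. The RNA sequencing compared 3 mice given tamoxifen, called knockout here, with 3 mice given vehicle, with 6 libraries in all, each taken as 1 mouse. All 6 were males of 6 months with both Vdr alleles floxed around exon 3 (Vdrfl/fl), and all carried the ACTA1-cre/Esr1* transgene, in which a skeletal actin promoter drives a tamoxifen-dependent Cre recombinase. The knockout group received intraperitoneal tamoxifen, 100 mg/kg in 75 microliters of corn oil with 10% ethanol, for 5 days, and the vehicle group received the oil and ethanol alone. Their diet held vitamin D3 at 3.4 IU/g and 0.81% calcium. Strength and glucose tolerance tests followed 10 days after dosing ended, and muscle was taken once they were complete. The effects of tamoxifen, of active Cre and of the deletion cannot be told apart between these groups, and the tamoxifen-treated mice without Cre are not analysed here. The sources used here do not say which portion of the gastrocnemius was homogenised.

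Myosin heavy chains are the motor proteins of the thick filament. They bind actin, split ATP and slide the filaments past each other, and the isoform in a fibre largely sets its speed of shortening. Adult mouse limb muscle uses 3 fast isoforms, IIb from Myh4, IIx from Myh1 and IIa from Myh2, and the slow isoform from Myh7, which is also the beta isoform of the heart. Myh3 and Myh8 encode the embryonic and perinatal isoforms of developing and regenerating fibres, Myh6 the alpha isoform of the heart, and Myh7b a slow-tonic isoform. In the mouse gastrocnemius, IIb fibres fill the superficial white portion, while slow and IIa fibres lie mostly in the deep red portion.

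No member passed the test between knockout and vehicle muscle, and the data describe a muscle whose isoform mixture differed widely between mice of the same group. Myh4 was the leading isoform in 5 of the 6 libraries. In knockout library 2 it stood close to Myh2, and which of them led depended on the gene length used. Myh1, Myh2, Myh7, Myh6 and Myh7b had higher estimates in knockout muscle, and Myh4, Myh3 and Myh8 lower ones. Levels are given as the deposited FPKM, which scale reads to gene length and to the library total.

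The genes fall into 3 chromosomal groups in mm10, and 5 of them stand in a row on the plus strand of chromosome 11, each with exons and introns of its own. These were Myh3 (chr11:67078300-67102291), Myh2 (chr11:67171027-67197517), Myh1 (chr11:67200052-67224575), Myh4 (chr11:67238029-67260446) and Myh8 (chr11:67277124-67308634). Myh6 (chr14:54941921-54966927) and Myh7 (chr14:54970688-54994634) lie next to each other on the minus strand of chromosome 14. Myh7b lies alone on the plus strand of chromosome 2 (chr2:155611212-155634307). The longest coding transcripts held 39 to 42 exons in the GENCODE M21 annotation.

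The promoters of the adult fast genes and Myh8 are shown because these neighbours had different levels across the mice while sharing a stretch of sequence. Each window runs from 250 bases before to 50 bases after the RefSeq start site in GRCm38.p6, which is not always the first base of the gene in the deposited table. Capitals mark the shared 14-base stretch and any TATAAA, the TATA box core, on the printed strand. The windows are chr11:67170777-67171076 for Myh2, chr11:67199852-67200151 for Myh1, chr11:67237562-67237861 for Myh4 and chr11:67276874-67277173 for Myh8, all on the plus strand.
Myh2 promoter: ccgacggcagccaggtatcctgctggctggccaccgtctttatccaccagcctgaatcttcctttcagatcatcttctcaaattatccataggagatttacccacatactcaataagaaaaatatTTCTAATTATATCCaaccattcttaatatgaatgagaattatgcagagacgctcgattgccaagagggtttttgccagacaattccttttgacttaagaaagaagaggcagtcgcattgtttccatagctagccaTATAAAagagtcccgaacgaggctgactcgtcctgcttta
Myh1 promoter: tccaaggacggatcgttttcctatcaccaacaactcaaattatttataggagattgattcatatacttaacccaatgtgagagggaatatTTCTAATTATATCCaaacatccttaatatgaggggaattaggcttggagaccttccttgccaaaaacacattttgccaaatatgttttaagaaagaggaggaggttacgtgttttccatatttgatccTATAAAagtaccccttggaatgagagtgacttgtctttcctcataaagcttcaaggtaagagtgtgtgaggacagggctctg
Myh4 promoter: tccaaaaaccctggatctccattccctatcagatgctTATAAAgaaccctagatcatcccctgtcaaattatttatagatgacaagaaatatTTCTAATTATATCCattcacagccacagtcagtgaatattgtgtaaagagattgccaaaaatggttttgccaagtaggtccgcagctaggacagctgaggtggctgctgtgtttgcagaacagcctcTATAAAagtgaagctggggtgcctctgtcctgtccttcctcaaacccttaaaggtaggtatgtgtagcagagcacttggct
Myh8 promoter: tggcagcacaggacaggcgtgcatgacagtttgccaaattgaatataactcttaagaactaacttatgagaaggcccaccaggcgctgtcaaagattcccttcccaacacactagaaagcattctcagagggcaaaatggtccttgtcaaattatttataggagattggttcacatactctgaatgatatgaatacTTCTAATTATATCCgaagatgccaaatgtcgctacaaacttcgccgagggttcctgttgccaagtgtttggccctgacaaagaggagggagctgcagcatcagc
The stretch TTCTAATTATATCC stood 125 bases before the start site in Myh2, 160 in Myh1, 158 in Myh4 and 54 in Myh8. It was found, on either strand, in 4 of 32851 RefSeq promoter windows of this length, which is 0.0122% of them, so in these 4 windows only. In the Myh2, Myh1 and Myh4 windows it lay within a shared stretch of 20 bases. The TATAAA nearest the start site began 10 bases after it in Myh2, but 32 and 31 bases before it in Myh1 and Myh4. The distances of the stretch thus depend on where the start site is annotated. Windows of Myh1, Myh4 and Myh8 also held the MEF2 motif, the element bound by MEF2 proteins, at 211, 182 and 99 bases before the start site, each overlapping a TATAAA on the opposite strand. That motif, searched on both strands, was in 3.19% of all windows, and TATAAA in 13.6%. These are matches of letters and were not measured as binding sites.

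Myh6, Myh7 and Myh7b carry microRNAs in introns, on the strand of the host gene, and RefSeq places their mature forms in GRCm38.p6. They are shown because the 3 hosts had nearly the same pattern across the mice. Capitals mark the seed, bases 2 to 8, which is the part of a microRNA that pairs with its targets. In Myh6 lies miR-208a-3p (chr14:54949072-54949093, minus strand), in Myh7 lies miR-208b-3p (chr14:54975710-54975731, minus strand), and in Myh7b lies miR-499-5p (chr2:155622893-155622913, plus strand).
miR-208a-3p: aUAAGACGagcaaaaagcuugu
miR-208b-3p: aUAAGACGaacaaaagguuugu
miR-499-5p: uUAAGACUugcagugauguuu
The first and second share the seed UAAGACG, and the third has UAAGACU. Libraries of polyadenylated RNA do not measure mature microRNAs. The precursor genes in these hosts had at most 5 reads in any library. Counts for Mir208a were 0, 0 and 0 in knockout and 2, 0 and 0 in vehicle muscle. Those for Mir208b were 5, 0 and 0 in knockout and 2, 0 and 0 in vehicle muscle, and Mir499 was listed at 0 throughout. Mir6923, a microRNA gene inside Myh3, had 8 reads in knockout library 2 and 0 in the other 5 libraries.

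Libraries held 30486874 to 39909535 counted reads. Vdr, the targeted gene, had 52, 27 and 40 reads in knockout and 46, 48 and 61 in vehicle libraries, or 1.12 ± 0.368 and 1.44 ± 0.139 CPM (reads scaled to library size; SD, n = 3 each). The ranges overlapped, and the log2 fold change of -0.37 (SE 0.37, 95% interval -1.19 to 0.46) had an adjusted p of 0.848 in edgeR. It was -0.64 without knockout library 1, -0.16 without knockout library 2 and -0.06 in limma on log2(FPKM + 1). A gene-level count does not single out exon 3, and cells other than muscle fibres are not targets of the promoter. Esr1, whose ligand-binding part is fused to Cre, had a log2 fold change of -0.15 (SE 0.55, edgeR adjusted p = 0.970), with a sign that turned when some libraries were left out. Skeletal markers were high in every library, with Acta1, skeletal actin, at 21431 to 24159 CPM in knockout and 19617 to 23468 CPM in vehicle muscle. Members took 3.95% to 8.01% of the reads in knockout and 4.17% to 6.84% in vehicle libraries. Knockout library 2 stood apart with 15.1% of reads in its 10 leading genes, against 20.8% to 25.2% in the other 5 libraries.

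Among all genes, edgeR called 0 of 15583 at an adjusted p below 0.05 (0%), with 1159 at an unadjusted p below 0.05 (7.44%), and DESeq2 called 109 of 15574 (0.7%). All 8 members entered the test. Neither tool called any of them, and Myh2 was the 1 member with an unadjusted p below 0.05, on the higher side, where 4.02% of all genes were. Between groups, 0 of the 8 members had CPM ranges that did not overlap, where 12.3% of all genes tested did. The median log2 fold change was 0.87 over the 8 members and 0.02 over all genes tested.

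Myh4, the fastest isoform, was the 8th most abundant gene of the table by mean FPKM. Its level was 9919, 1876 and 7007 FPKM in knockout libraries 1, 2 and 3, and 7828, 9888 and 5638 FPKM in vehicle libraries 1, 2 and 3. Knockout library 2 was the lowest and knockout library 1 the highest, so the knockout mice enclosed the whole vehicle range. Means were 6267 ± 4072 FPKM in knockout and 7785 ± 2125 FPKM in vehicle muscle (SD, n = 3 each). The log2 fold change was -0.33 (95% interval -1.64 to 0.98, SE 0.58; edgeR adjusted p = 0.923), and it was 0.12 without knockout library 2 and -0.97 without knockout library 1.

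Myh1 encodes the IIx chain, whose fibres are intermediate in speed between IIa and IIb. It stood at 1606, 1309 and 1423 FPKM in knockout and at 1180, 792 and 689 FPKM in vehicle libraries. Every knockout value lay above every vehicle value on this scale, where 6.43% of all genes tested were placed so and 10.8% did not overlap in either direction. The groups did overlap once libraries were scaled by TMM factors, since knockout library 2 had 7339 CPM and vehicle library 1 had 7783 CPM of Myh1. Its log2 fold change of 0.63 (95% interval -0.08 to 1.34, SE 0.32) had an edgeR adjusted p of 0.695. It was the steadiest of the 3 adult fast genes, at 2.33-fold between the highest and the lowest library.

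Myh2 encodes the IIa chain of oxidative fast fibres. Its level was 927, 1674 and 1152 FPKM in knockout and 1008, 292 and 293 FPKM in vehicle libraries. Vehicle library 1 lay above knockout library 1 and stood more than 3-fold above both other vehicle libraries. Averages were 1251 ± 383 FPKM in knockout and 531 ± 413 FPKM in vehicle muscle (SD, n = 3 each). With a log2 fold change of 1.12 (SE 0.49, 95% interval 0.01 to 2.22), Myh2 had an unadjusted p of 0.0482 and an adjusted p of 0.668 in edgeR. Without vehicle library 1 the log2 fold change was 1.98 at an adjusted p of 0.165.

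Myh7, the slow isoform, had the widest range of all 8 genes. It was found at 163, 735 and 324 FPKM in knockout and at 264, 30.3 and 14.4 FPKM in vehicle libraries. Vehicle library 1 exceeded knockout library 1, while the other 2 vehicle libraries were far below the rest, a span of 50.9-fold. The knockout mean was 407 ± 295 FPKM and the vehicle mean 103 ± 140 FPKM (SD, n = 3 each), an SD larger than the mean in vehicle muscle. Its log2 fold change of 1.82 (SE 1.04, 95% interval -0.60 to 4.25) had an edgeR adjusted p of 0.733. The estimate rested on single mice, being 4.03 without vehicle library 1 and 1.18 without knockout library 2.

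Myh6 followed Myh7 in every library at 10.1% to 15.6% of its level. Its values were 22.5, 108 and 32.6 FPKM in knockout and 34.6, 3.24 and 2.25 FPKM in vehicle libraries. As a percentage of Myh7, Myh6 came to 13.8, 14.7 and 10.1 in knockout and to 13.1, 10.7 and 15.6 in vehicle libraries. This ratio kept within a narrow band while Myh6 ranged 48.1-fold and Myh7 50.9-fold. The log2 fold change was 1.86 (95% interval -0.61 to 4.33, SE 1.06; edgeR adjusted p = 0.733), with 4.15 without vehicle library 1 and 1.00 without knockout library 2.

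Heart markers were counted because Myh6 is the alpha chain of the heart. Of 8 such markers, the natriuretic peptide genes Nppa and Nppb and the transcription factor gene Nkx2-5 were at 0 reads in all 6 libraries, and Myl7, the atrial light chain gene, had 1 read in knockout library 3 and none elsewhere. The 8 markers summed to 0.582 to 1.42 CPM in knockout and 0.443 to 1.84 CPM in vehicle libraries. Counts of Tnni3, the cardiac troponin I gene, were 0, 19 and 18 in knockout and 7, 15 and 7 in vehicle libraries. Those of the pacemaker channel gene Hcn4 were 8, 12 and 13 in knockout and 7, 36 and 5 in vehicle libraries. The calcium channel gene Ryr2 had at most 16 reads, and the transcription factor gene Tbx20 at most 5. The 3 muscle spindle markers Egr3, Etv4 and Ntf3 summed to 2.91 to 5.85 CPM in knockout and 2.71 to 3.53 CPM in vehicle libraries. The part of these heart and spindle markers in the result was not tested.

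Myh7b was the scarcest member, with 425, 1857 and 809 reads in knockout and 796, 148 and 66 in vehicle libraries. These gave 1.70, 9.18 and 3.46 FPKM in knockout and 3.58, 0.599 and 0.249 FPKM in vehicle libraries. As for Myh7, knockout library 2 was the highest and vehicle library 3 the lowest, and vehicle library 1 lay within the knockout range. Its log2 fold change was 1.53 (95% interval -0.66 to 3.73, SE 0.94; edgeR adjusted p = 0.750), and it was 3.34 without vehicle library 1 and 0.75 without knockout library 2. As a percentage of Myh7, Myh7b stood at 1.04, 1.25 and 1.07 in knockout and at 1.36, 1.98 and 1.73 in vehicle libraries. These ranges did not overlap (exact permutation p = 0.1, adjusted p = 0.4 over 4 ratios within the family), and the ratio was singled out after its values were seen.

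Myh8, the perinatal isoform, was held at a level of the same order as Myh7 in vehicle muscle. It measured 146, 52.1 and 91.9 FPKM in knockout and 114, 108 and 76.3 FPKM in vehicle libraries. The groups overlapped fully, and the lowest value was again in knockout library 2. The log2 fold change was -0.07 (95% interval -0.99 to 0.84, SE 0.41; edgeR adjusted p = 0.980), with the opposite sign at 0.27 without knockout library 2, at 0.01 without knockout library 3 and at 0.04 without vehicle library 1. The listed length of Myh8, 11772 bases, exceeds its longest coding transcript of 6149 bases, so its FPKM is understated relative to the other members.

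Myh3, the embryonic isoform, was the steadiest member, at 1.51-fold between extremes. It had 56.2, 37.3 and 38.7 FPKM in knockout and 53.8, 38.1 and 51.6 FPKM in vehicle libraries. Both groups covered nearly the same range. The log2 fold change of -0.18 (SE 0.27, 95% interval -0.79 to 0.43) had an adjusted p of 0.905 in edgeR. It was -0.52 without knockout library 1 and -0.01 without knockout library 2.

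**Figure D1:**
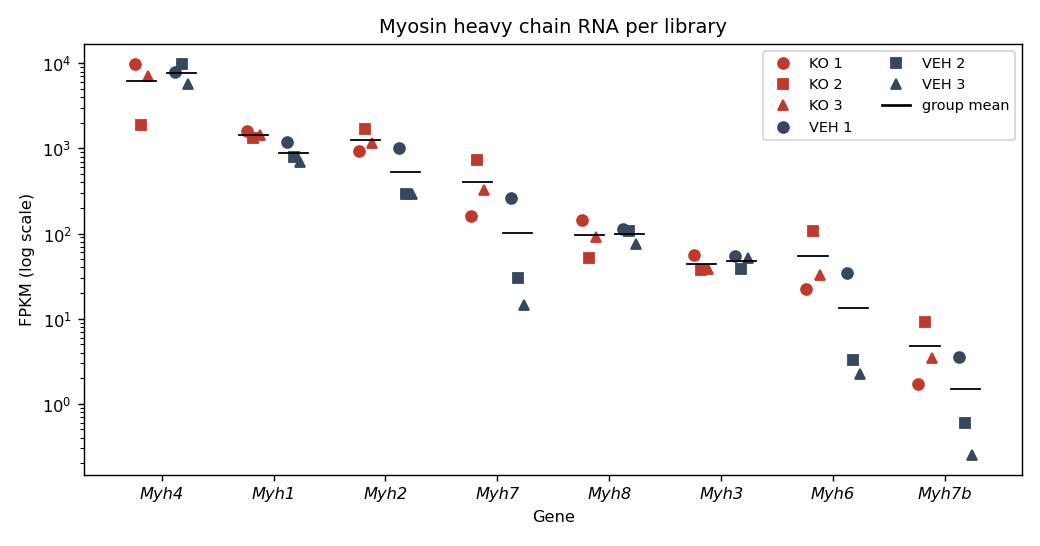
Deposited FPKM of the 8 genes on a log axis, 1 point per library (knockout and vehicle, 3 each), with lines for group means. Myh7, Myh6 and Myh7b spread over 36.8-fold to 50.9-fold between libraries, while Myh3 spreads over 1.51-fold.

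**Figure D2:**
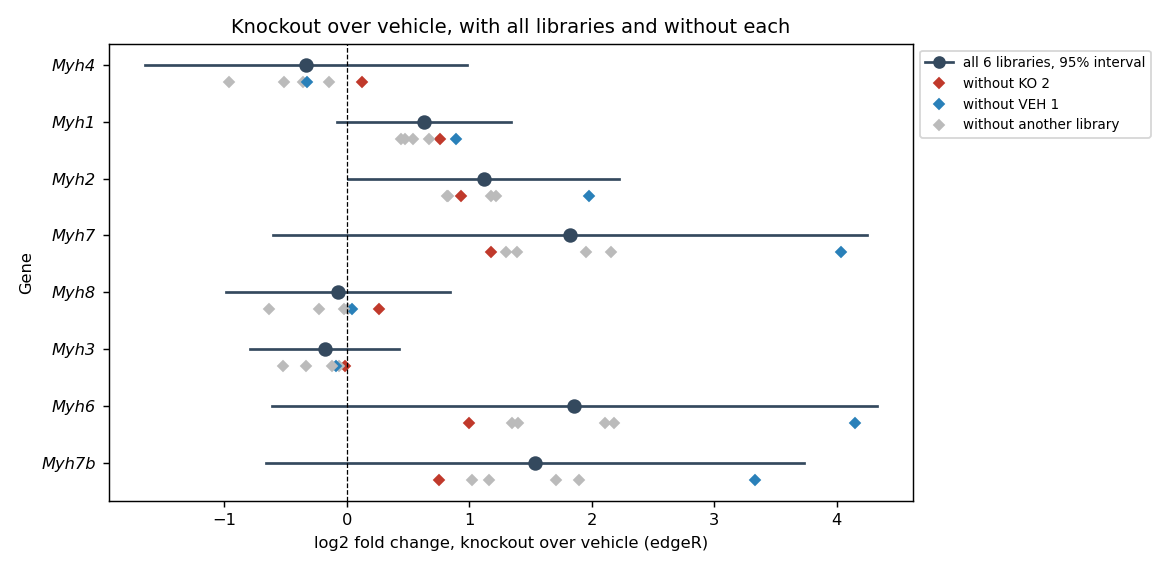
Log2 fold change of knockout over vehicle from edgeR for each gene, with its 95% interval from all 6 libraries (dark points) and the estimate after leaving out each library in turn (diamonds). Leaving out vehicle library 1 moves Myh7 to 4.03 and Myh6 to 4.15, and leaving out knockout library 2 moves Myh4 to 0.12.

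In order of mean FPKM, knockout muscle had Myh4, Myh1, Myh2, Myh7, Myh8, Myh6, Myh3 and Myh7b. Between neighbours in that order, the libraries of Myh1 (1446 ± 150 FPKM) and Myh2 (1251 ± 383 FPKM) overlapped, as did those of Myh8 (96.6 ± 47.1 FPKM) and Myh6 (54.4 ± 46.9 FPKM) and those of Myh6 and Myh3 (44.1 ± 10.5 FPKM). Vehicle muscle had the same order except that Myh3 (47.8 ± 8.52 FPKM) stood above Myh6 (13.4 ± 18.4 FPKM). There the libraries of Myh1 (887 ± 259 FPKM) overlapped those of Myh2 (531 ± 413 FPKM), those of Myh7 overlapped those of Myh8 (99.2 ± 20.0 FPKM), and those of Myh6 overlapped those of Myh7b (1.48 ± 1.83 FPKM). All other neighbours stood clear of each other in all 3 libraries of their group. These levels are per base of listed length (SD, n = 3 each). With longest-transcript lengths Myh2 stood above Myh1 in knockout muscle, with mean shares of 17.1% and 15.9% of the 8 genes. In vehicle muscle Myh8 stood above Myh7 by mean share. Their shares were 1.06% and 1.00% on listed lengths, and 1.97% and 1.33% on longest-transcript lengths.

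The share of each isoform in the summed FPKM of the 8 genes does not depend on library depth. Myh4 made up 77.2%, 32.3% and 69.6% in knockout and 74.7%, 88.7% and 83.3% in vehicle libraries. Knockout library 1 lay within the vehicle range and knockout library 2 far below it. In knockout library 2, Myh4 led Myh2 by 32.3% to 28.9% on listed lengths, while Myh2 led Myh4 by 30.3% to 28.6% on raw counts and by 30.3% to 28.9% on longest-transcript lengths. The means of 59.7% ± 24.0 in knockout and 82.2% ± 7.07 in vehicle muscle differed by -22.5 percentage points (exact two-sided permutation test, p = 0.2, adjusted p = 0.32 over the 8 shares). Without knockout library 2 the difference was -8.82 points. With 3 mice per group such a test cannot go below 0.1.

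Myh1 was the isoform whose share separated the groups. It supplied 12.5%, 22.6% and 14.1% in knockout and 11.3%, 7.10% and 10.2% in vehicle libraries. The lowest knockout share was above the highest vehicle share, though by little. The difference of 6.89 percentage points reached the smallest p the exact permutation test allows, 0.1, and had an adjusted p of 0.32. It was 3.80 points without knockout library 2.

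Myh2 supplied 7.22%, 28.9% and 11.4% in knockout and 9.61%, 2.62% and 4.33% in vehicle libraries, and vehicle library 1 lay within the knockout range. Myh7 supplied 1.27%, 12.7% and 3.21% in knockout and 2.52%, 0.271% and 0.213% in vehicle libraries. In both genes the groups overlapped through knockout library 1 and vehicle library 1. The differences were 10.3 and 4.72 percentage points, each with an exact permutation p of 0.2 and an adjusted p of 0.32. Without knockout library 2 they were 3.81 and 1.24 points.

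The scarcer isoforms kept small shares. Myh8 supplied 0.897% to 1.14% in knockout and 0.967% to 1.13% in vehicle libraries (exact permutation p = 0.4, adjusted p = 0.457). Myh3 supplied 0.384% to 0.643% in knockout and 0.341% to 0.763% in vehicle libraries (exact permutation p = 0.7, adjusted p = 0.7). The share of developmental isoforms together was thus 1.30% to 1.57% in knockout and 1.31% to 1.89% in vehicle libraries. Myh6 reached 1.87% in knockout library 2 and was at or below 0.330% in the other 5 libraries (exact permutation p = 0.3, adjusted p = 0.4), and Myh7b was at most 0.158% anywhere (exact permutation p = 0.2, adjusted p = 0.32).

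The summed level did not separate the groups. Summed FPKM of the 8 genes was 12841, 5801 and 10073 in knockout and 10485, 11152 and 6765 in vehicle libraries. Groups overlapped fully, with means of 9572 ± 3546 and 9467 ± 2364 FPKM in knockout and vehicle muscle (SD, n = 3 each; exact permutation p = 1). Knockout library 2 and vehicle library 3 shared a low total. Their shares of Myh7, Myh6 and Myh7b together lay at opposite ends, at 14.7% in knockout library 2 and 0.250% in vehicle library 3.

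**Figure D3:**
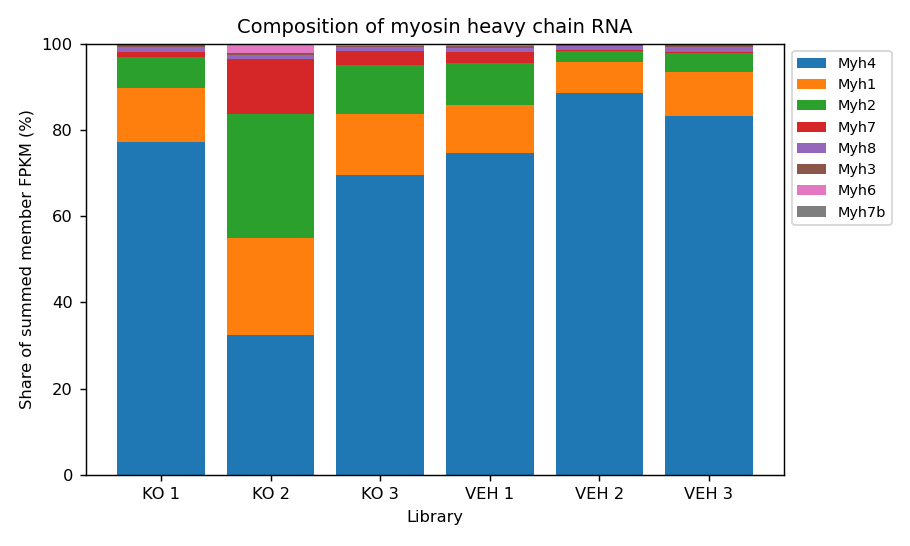
Share of each isoform in the summed FPKM of the 8 genes, in percent, 1 stacked bar per library with the knockout libraries left of the vehicle libraries. Myh4 fills 32.3% of knockout library 2 and 69.6% to 88.7% of the other 5 libraries.

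Ratios to Myh4 within a library, which scaling of libraries cannot change, ran the same way. Log2 of Myh7 over Myh4 was -5.93, -1.35 and -4.44 in knockout and -4.89, -8.35 and -8.61 in vehicle libraries. The groups overlapped through knockout library 1 and vehicle library 1, and the difference of 3.38 had an exact permutation p of 0.2 (adjusted p = 0.267 over 4 ratios). Log2 of Myh2 over Myh4 was -3.42, -0.16 and -2.60 in knockout and -2.96, -5.08 and -4.27 in vehicle libraries, with the same overlap, a difference of 2.04 and the same p values. Without knockout library 2 the differences were 2.10 for Myh7 and 1.09 for Myh2. For both ratios vehicle library 1 was the vehicle mouse nearest to knockout muscle.

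Log2 of Myh1 over Myh4 was -2.63, -0.52 and -2.30 in knockout and -2.73, -3.64 and -3.03 in vehicle libraries. Here every knockout mouse lay above every vehicle mouse, as 2.04% of 15582 genes did when taken relative to Myh4, with 2.4% not overlapping in either direction. The difference was 1.32 (exact permutation p = 0.1, adjusted p = 0.267), and 0.67 without knockout library 2. The gap between knockout library 1 and vehicle library 1 was small beside the spread within either group. Log2 of Myh2 over Myh1 was -0.79, 0.35 and -0.30 in knockout and -0.23, -1.44 and -1.23 in vehicle libraries, a difference of 0.72 (exact permutation p = 0.3, adjusted p = 0.3), or 0.42 without knockout library 2 and 1.09 without vehicle library 1.

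Across the 6 mice, Myh6, Myh7 and Myh7b varied alike. Likeness was measured as the root mean square difference of log2 CPM, after centring each gene on its own mean over the 6 libraries. Myh6 and Myh7 differed by 0.23, Myh7 and Myh7b by 0.35 and Myh6 and Myh7b by 0.41, although each of them varied by 1.66 to 1.93 around its own mean. Myh8 was nearest to Myh3 (0.39) and then to Myh4 (0.42), with a variation of its own of 0.56. The distance to Myh3 was above the 0.34 by which Myh3 varied around its own mean, and Myh3 and Myh8 lay on opposite sides of their means in vehicle libraries 2 and 3. The widest separation was between Myh4 and Myh6, at 2.50, and between Myh4 and Myh7, at 2.47. Myh1 and Myh2, which are neighbours on chromosome 11, differed by 0.62, more than the 0.44 by which Myh1 varied around its own mean, and Myh1 was nearer to Myh3 (0.50) and Myh8 (0.58). These distances rest on the same 6 libraries and are descriptions.

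**Figure D4:**
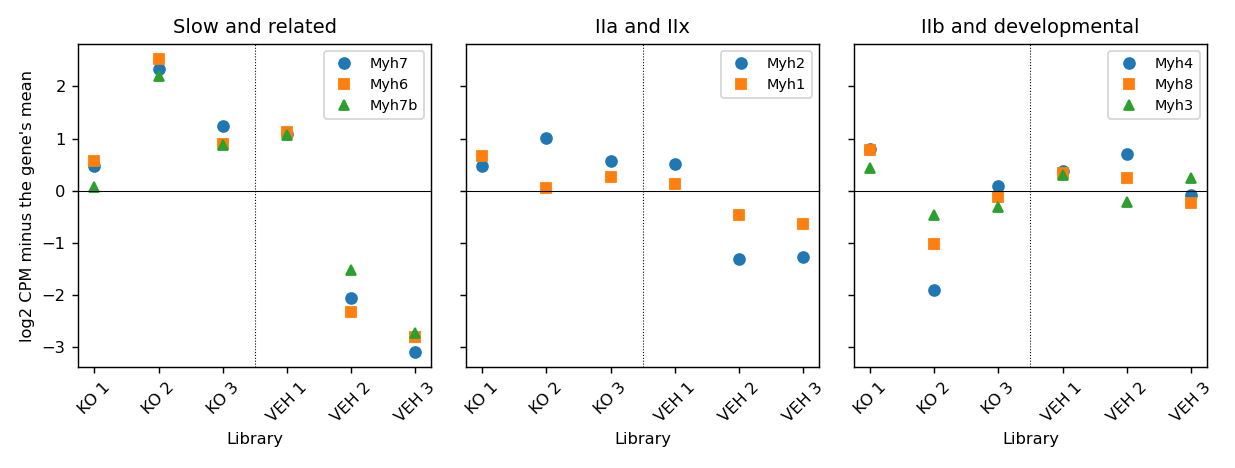
Centred log2 CPM of each gene across the 6 libraries, knockout libraries left of vehicle libraries. Myh7, Myh6 and Myh7b run together, with differences of 0.23 to 0.41 between them. Myh4 lies on the opposite side of its mean from them only in knockout library 2 and vehicle library 2.

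The genes with the nearest patterns differed between the members. Out of 11403 genes with a name and a mean of at least 1 CPM, the 3 nearest to Myh6 were Tnni1 (0.33), Myl3 (0.35) and Tnnt1 (0.37). Those nearest to Myh7 were Cyfip2 (0.35), Cdh22 (0.42) and Sv2b (0.46), and those nearest to Myh7b were Astn2 (0.25), Cyfip2 (0.28) and Cdh22 (0.30). Myh2 was nearest to Inpp5j (0.15), Fam179a (0.15) and Myom3 (0.16). For Myh4 they were Ankrd44 (0.18), Pard6b (0.18) and Pdzd7 (0.20). Myh8 was nearest to Irx3os (0.12), Map9 (0.15) and Neb (0.16), Myh1 to Zfp84 (0.09), Sbsn (0.11) and Ccnj (0.11), and Myh3 to Alg8 (0.09), Ptges3l (0.09) and Pgam2 (0.10). These distances stand beside the members' own variation around their means, which was 0.34 for Myh3, 0.44 for Myh1, 0.56 for Myh8, 0.91 for Myh4 and 0.92 for Myh2.

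Sequence likeness among the members was set beside these patterns, since reads from near-identical stretches cannot be placed with certainty. Aligned longest coding transcripts of Myh6 and Myh7 were 90.1% identical, Myh1 and Myh2 89.8%, Myh1 and Myh4 89.1% and Myh4 and Myh8 86.9%. Of the 50-base windows of each transcript, 26.7% in Myh1, 26.9% in Myh2, 18.9% in Myh4, 21.4% in Myh8, 22.6% in Myh6 and 22.2% in Myh7 occurred in another member or in Myh13. In Myh3 the share was 4.81%, and in Myh7b it was 0%. For windows of 100 bases the shares were lower, at 3.85% in Myh4 to 11.4% in Myh6, with 1.15% in Myh3 and 0% in Myh7b. Myh7b therefore followed Myh7 with no shared window, whereas the levels of Myh6 and Myh7 carry an uncertainty from shared reads that was not tested. How such reads were assigned, and whether strand was used in counting, is not stated in the labels. Reads from stretches where a member overlaps a gene on the opposite strand can therefore not be assigned with certainty.

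Of 3 tested noncoding genes at the fast locus, Myhas and 2310065F04Rik had lower estimates in knockout muscle. The third, 9430073C21Rik, had one of 0.15 (SE 0.44, edgeR adjusted p = 0.959). It is an antisense gene that overlaps the end of Myh2 and stops short of Myh1 (chr11:67195680-67199234). Myhas (chr11:67211256-67237573, matched by gene ID to the older name in the table) is an antisense gene. It spans from within Myh1 to just before Myh4, on the opposite strand. It had 43.4, 8.74 and 32.1 CPM in knockout and 40.6, 68.5 and 93.5 CPM in vehicle libraries, and its log2 fold change was -1.27 (SE 0.54, edgeR adjusted p = 0.666). Vehicle library 1 lay below knockout library 1. 2310065F04Rik, a long noncoding RNA gene between Myh3 and Myh2, had 179, 54.8 and 153 CPM in knockout and 217, 215 and 335 CPM in vehicle libraries. Here the groups did not overlap, against 6.48% of all genes placed lower without overlap, and the log2 fold change was -0.99 (SE 0.40, edgeR adjusted p = 0.651).

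The partners of slow myosin had higher estimates as a group, without any call. Of 12 slow fibre contractile genes, 12 had a positive log2 fold change, against 52.9% of all genes tested, with a median of 1.85 and a range of 1.01 to 2.26. The gene lists were chosen with earlier results of these data known. Their genes were measured in the same 6 libraries, so a shared sign is a description and not separate support from each gene. The edgeR test called 0 of the 12, and 3 had an unadjusted p below 0.05, where 4.02% of all genes did on the higher side. Casq2, the calcium-binding protein of the reticulum in slow fibres, was at 91.9, 337 and 138 CPM in knockout and at 107, 30.2 and 26.6 CPM in vehicle libraries (log2 fold change 1.79, SE 0.66, edgeR adjusted p = 0.646). Estimates were 1.38 (SE 0.53) for the light chain gene Myl6b, 1.79 (SE 0.70) for Myoz2, which anchors calcineurin at the Z-disc, and 2.17 (SE 0.96) for Myl2, the slow regulatory light chain gene. The list had no gene whose groups did not overlap, and its median was 0.85 without knockout library 2 and 3.21 without vehicle library 1. In bulk muscle, fewer or more fibres of a type and less or more RNA per fibre cannot be told apart.

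The partners of fast myosin showed the mirror image at a smaller size. Of 12 fast fibre contractile genes, 12 had a negative log2 fold change, where 52.9% of all genes tested had a positive one. The median was -0.43 and the range -0.84 to -0.15, and edgeR called 0. Mylk2, the kinase of the fast regulatory light chain, was at 614, 339 and 624 CPM in knockout and at 814, 1107 and 910 CPM in vehicle libraries, with no overlap (log2 fold change -0.84, SE 0.28, edgeR adjusted p = 0.628). It was the 1 gene of the 12 whose groups did not overlap, where 6.48% of all genes were lower without overlap. Pvalb, the calcium buffer of the fastest fibres, had an estimate of -0.76 (SE 0.45), the Z-disc gene Myoz1 one of -0.51 (SE 0.34) and the fast troponin C gene Tnnc2 one of -0.45 (SE 0.31). The median of the list was -0.24 without knockout library 2 and -0.74 without knockout library 1.

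**Figure D5:**
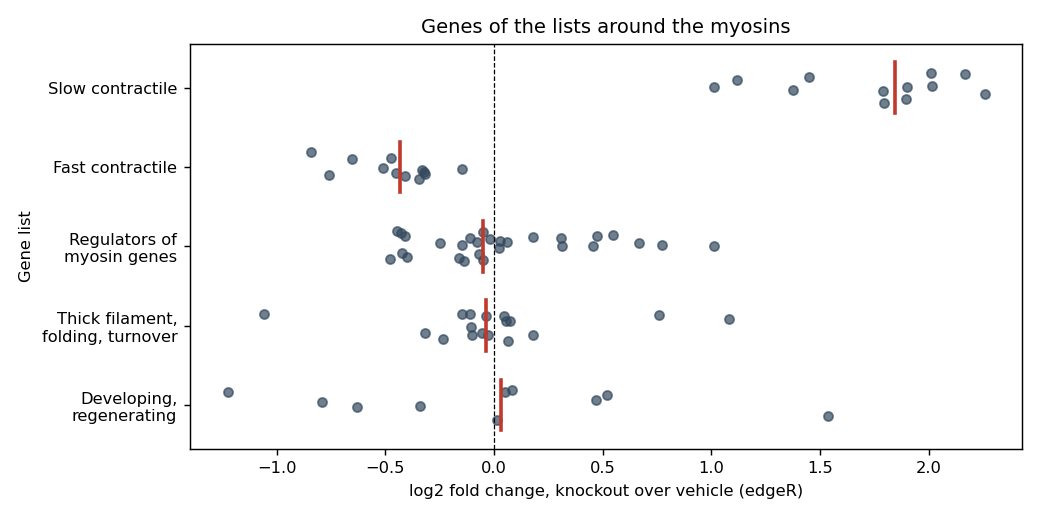
Log2 fold change of knockout over vehicle for every tested gene of the lists, 1 point per gene, with the list median marked. All 12 slow fibre genes lie above 0 and all 12 fast fibre genes below it, while no gene of these lists was called by edgeR.

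Genes of developing and regenerating muscle, 10 of 13 tested, had 6 higher and 4 lower estimates with a median of 0.03. Myog, the factor that drives myoblast differentiation, had 14.6, 7.93 and 15.6 CPM in knockout and 25.3, 25.0 and 38.8 CPM in vehicle libraries. All 3 knockout values lay below all vehicle values, and the log2 fold change was -1.22 (SE 0.28) with an adjusted p of 0.478 in edgeR and 0.0142 in DESeq2. Myog was the 1 of the 10 tested genes whose groups did not overlap, where 6.48% of all genes were lower without overlap. Actc1, the actin of embryonic muscle, reached 830 CPM in knockout library 1 and had a log2 fold change of 1.54 (SE 0.79, edgeR adjusted p = 0.707). The satellite cell gene Pax7 had an estimate of 0.52 and the myoblast factor gene Myf5 of -0.79.

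Among 28 regulators of myosin isoform genes, 12 had higher and 16 lower estimates, with a median of -0.05, and edgeR called 0. Prox1, a homeobox factor that promotes slow fibre genes, was at 3.17, 5.79 and 4.27 CPM in knockout and at 3.00, 1.92 and 1.64 CPM in vehicle libraries. The groups did not overlap (log2 fold change 1.01, SE 0.34, edgeR adjusted p = 0.628). Hdac5, a deacetylase that represses MEF2 targets, was at 43.3, 49.4 and 45.2 CPM in knockout and at 64.9, 63.1 and 55.1 CPM in vehicle libraries, again without overlap (-0.41, SE 0.15, edgeR adjusted p = 0.643). Esrra, a nuclear receptor of oxidative metabolism, had an estimate of 0.55 (SE 0.22) and the homeobox gene Six5 one of 0.77 (SE 0.33). The other regulator lower without overlap was Nfatc1. It had 37.1, 24.1 and 39.3 CPM in knockout and 40.0, 52.8 and 47.2 CPM in vehicle libraries. Its log2 fold change was -0.48 (SE 0.21, edgeR adjusted p = 0.669). In all, 4 regulators were higher and 2 lower without overlap, against 5.83% and 6.48% of all genes.

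Of 17 genes for thick filament partners, chaperones and turnover, 7 had higher and 10 lower estimates, with a median of -0.03. Trim63, the ubiquitin ligase MuRF1 that marks myosin for breakdown, was at 452, 303 and 707 CPM in knockout and at 599, 1467 and 978 CPM in vehicle libraries, with overlap (log2 fold change -1.06, SE 0.39, edgeR adjusted p = 0.640). Mybpc1, the slow myosin-binding protein C gene, was at 3065, 4410 and 3135 CPM in knockout and at 3042, 1402 and 1828 CPM in vehicle libraries. These groups did not overlap, by a narrow gap (0.76, SE 0.33, edgeR adjusted p = 0.667). Mybpc1 was the 1 gene of the 17 higher without overlap, and 1 other was lower, against 5.83% and 6.48% of all genes. The M-band gene Myom3 had an estimate of 1.08 (SE 0.58) and the chaperone gene Hsp90ab1 one of -0.24.

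The other class II myosin heavy chain genes, which serve nonmuscle and smooth muscle cells and the extraocular muscles, had estimates near 0 in 3 of the 5 tested. They were 0.01 for Myh9, 0.01 for Myh13 and 0.08 for Myh14, with 0.52 (SE 0.57) for Myh10 and -0.34 for Myh11, the smooth muscle chain.

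Markers of other cells also differed between the libraries. Macrophage markers summed to 33.8, 93.8 and 89.6 CPM in knockout and to 44.9, 36.7 and 27.8 CPM in vehicle libraries. Estimates were higher for 5 of 5 genes, against 52.9% of all genes tested. Of these 5, 4 had an unadjusted p below 0.05 in edgeR, where 4.02% of all genes did on the higher side. The groups overlapped in all 5. Adipocyte markers summed to 368, 650 and 244 CPM in knockout and to 297, 223 and 217 CPM in vehicle libraries, with 4 of 4 higher, all with overlap. Of these adipocyte markers, 3 had an unadjusted p below 0.05 in edgeR, against the same 4.02% of all genes. In both lists knockout library 2, the mouse richest in Myh7 and poorest in Myh4, had the highest sum. Smooth muscle markers summed to 182, 128 and 192 CPM in knockout and to 210, 288 and 254 CPM in vehicle libraries, with 4 of 4 lower. Of these 4, 3 had an unadjusted p below 0.05 in edgeR, where 7.44% of all genes did in either direction. The same 3 did not overlap between groups, against 6.48% of all genes placed lower without overlap. Cnn1, the calponin gene of smooth muscle, had a log2 fold change of -1.60 (SE 0.41), with an adjusted p of 0.526 in edgeR and 0.0297 in DESeq2. Sums ran from 531 to 3184 CPM in knockout and 604 to 3605 CPM in vehicle libraries for erythroid markers, from 29.3 to 46.0 and 39.8 to 94.9 CPM for Schwann cell markers, and from 151 to 179 and 126 to 176 CPM for endothelial markers. Estimates were lower for 3 of 3 Schwann cell markers, 3 of 5 erythroid markers and 1 of 3 endothelial markers. In the 6 lists of other cells no marker was at 0 in all libraries, and their part in the myosin results was not tested.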

How the data were processed

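Polyadenylated RNA of gastrocnemius was sequenced (TruSeq Stranded mRNA, per the labels' protocols). The deposited table holds a raw read count per gene and library, made with bcl2fastq, STAR 2.6.1c and featureCounts of Subread 1.5.1 on mm10, per the submitters' processing notes. The authors' FPKM could be recomputed from the deposited counts, library totals and gene lengths (each with 1 base added), and so carry no further scaling. The annotation release is not given in the sources used here.

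Counts were fitted in R 4.3.3 with edgeR 4.0.16 (filterByExpr with minimum count 10 and minimum total 15, TMM, robust quasi-likelihood test, two-sided). Adjustment was by Benjamini-Hochberg across the 15583 genes kept, with a threshold of 0.05. Library totals of 30486874 to 39909535 reads put a count of 3 at 0.0752 to 0.0984 CPM. CPM values use TMM-scaled totals. Shares and ratios were compared by exact permutation over the 20 splits of 6 libraries. The fit was tested on simulated data. The members and the gene lists were chosen with earlier results of these data known. All members, Vdr and Esr1 were named, with up to 4 genes per list by call and then smallest p, all genes of the list of noncoding genes at the loci, and the 3 genes of nearest pattern for each member. Individual heart, spindle, skeletal and smooth muscle markers were also named. Other noncoding genes at the loci (Mir6923, 9430073C21Rik, Mhrt and Gm29015) and the regulator Nfatc1 were named after their values were seen. Replicate numbers were only names. Whether libraries were copies of each other was checked, and all pairs differed far beyond counting error (chi-square per degree of freedom of at least 40.6). The labels name no batch, and they do not say outright that each sample is a separate mouse, so p-values measure the spread between these samples.

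Alternatives were DESeq2 1.42.0, its size factors or upper-quartile factors in edgeR, limma 3.58.1 on log2(FPKM + 0.1) and log2(FPKM + 1), no count filter, no robust estimation, a threshold of 0.1, raw counts or longest-transcript lengths (GENCODE M21, added after seeing the data) for shares and ratios, and leaving out each library.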

Additional observations from a re-analysis of the deposited data

How the results depend on the processing

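No member was called under any of the alternatives run. The number of genes called over the whole table was 0, and it became 4 with DESeq2 size factors in edgeR, 29 with no count filter, 7 at a threshold of 0.1 and 109 in DESeq2, with 0 to 24 when each library was left out (24 without knockout library 1, 6 without knockout library 2). DESeq2 called 1 gene of the developing muscle list, Myog, and 1 smooth muscle marker, Cnn1. When each library was left out, log2 fold changes ran from -0.97 to 0.12 for Myh4, from -0.63 to 0.27 for Myh8, and from -0.93 to 0.45 for Esr1, and the median of the developing muscle list ran from -0.15 to 0.13. The difference in summed FPKM was 104, with -213 after dividing by TMM factors and -1530 to 1989 when each library was left out. The difference in the share of Myh3 ran from -0.15 to 0.0613 percentage points. Myh1, Myh2, Myh7, Myh6 and Myh7b kept positive estimates and Myh3 a negative one under the 13 alternatives of the fit, but sizes moved. In limma on log2(FPKM + 0.1) the estimates were 2.79 for Myh7, 2.73 for Myh6, 2.02 for Myh7b, 1.46 for Myh2 and -0.58 for Myh4. Leaving out libraries also moved small list medians across 0, from -0.09 to 0.03 for the regulators, from -0.25 to 0.14 for the thick filament list and from -0.21 to 0.23 for the other class II myosins. The cause of these shifts was not tested. No paired analysis was possible because replicate numbers were given here only as names. Vdr, Myh7b, Mhrt, the microRNA genes and the heart and spindle markers had small counts in some libraries.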

Other observations

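Longest-transcript lengths changed the levels of the members relative to each other. Myh2 then stood above Myh4 in knockout library 2 and above Myh1 in the knockout mean, both the reverse of the order by listed length. With these lengths, Myh7 averaged 7.18% of the summed level in knockout and 1.33% in vehicle muscle, and Myh8 averaged 1.77% in knockout and 1.97% in vehicle muscle. By listed length, Myh7 had averaged 5.72% in knockout and 1.00% in vehicle muscle, and Myh8 0.982% in knockout and 1.06% in vehicle muscle. The listed length of Myh7, 8586 bases, likewise exceeds its longest coding transcript of 6230 bases.

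Further noncoding genes at the slow locus were looked at after their values were seen. Mhrt, the antisense RNA gene at Myh7, had 7, 41 and 13 reads in knockout and 22, 1 and 0 reads in vehicle libraries, highest in knockout library 2 as Myh7 was. Gm29015 had 1, 11 and 9 reads in knockout and 6, 0 and 0 in vehicle libraries.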
